A study of Homo sapiens with 6 samples.

Results

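The 10 genes described here encode the main building blocks of the vascular basement membrane: the collagen IV chains COL4A1, COL4A2 and COL4A5, the laminin chains LAMA4, LAMA5, LAMB1 and LAMC1, nidogen 1 (NID1), perlecan (HSPG2) and collagen XVIII (COL18A1). They were chosen by name, with earlier results of these data known. All 10 were found among 19755 protein-coding genes and among the 12068 that were expressed highly enough to be tested. RNA-seq of total RNA was run on 3 libraries of cells given LPS, lipopolysaccharide from the outer wall of Gram-negative bacteria, for 12 h at 1000 ng/ml, and on 3 control libraries. The series compares LPS-treated with control cells as a model of sepsis. All 6 libraries carry the cell line name EA.hy926, an established hybrid of an umbilical vein endothelial cell and the lung carcinoma line A549, and their titles also speak of human umbilical vein endothelial cells, so the labels leave it unclear which cells these were. Cells of both groups were grown in DMEM with fetal bovine serum. The genotype field reads LPS-induced for the LPS libraries and WT for the controls, the treatment field reads the same for all 6, and what the controls received during the 12 h is not stated. Groups were therefore taken from the titles. The labels do not say whether the replicates were grown as separate cultures, and the p-values below may therefore reflect technical spread alone.

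The basement membrane is a thin sheet of matrix under the endothelium, built from a laminin network that binds the cell and a covalently linked collagen IV network beneath it. Nidogens bridge these networks, and the heparan sulfate proteoglycans perlecan and collagen XVIII fill and stabilise the sheet and hold growth factors. Each laminin is a heterotrimer of an alpha, a beta and a gamma chain, and the alpha chain sets which cell receptors it binds. In vessels the sheet anchors endothelial cells, and leukocytes have to cross it when they leave the blood.

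The collagen IV genes COL4A1 and COL4A2 stand head to head on chromosome 13 and are read in opposite directions from the interval between their starts. That interval is shown first, because both genes were higher in the LPS libraries by nearly the same amount. It spans chr13:110307158-110307283 of GRCh38.p14 between the RefSeq starts of COL4A1 (minus strand, 110307157) and COL4A2 (plus strand, 110307284), 126 bases in all, and is printed on the plus strand from RefSeq. Capitals mark, from left to right, a CCAAT box, a CTC box (CCCTNCCCC) and a GC box (GGGCGG).
COL4A1/COL4A2 interval: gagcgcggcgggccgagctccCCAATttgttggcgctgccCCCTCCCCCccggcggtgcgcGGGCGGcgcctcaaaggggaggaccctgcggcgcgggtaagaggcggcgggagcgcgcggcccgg

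Windows of the same 126 bases before each RefSeq start were searched on both strands, counting overlapping matches, for 35116 starts of all genes. The CCAAT box occurred in 21.1% of all windows, the CTC box in 6.43% and the GC box in 34.6%. Among the 11 windows of the 10 genes, 2 held a CCAAT box and 2 a CTC box, in both cases the shared interval read once for each of its genes, and 7 held a GC box. None of the 11 held a TATA box (TATAAA, 5.87% of all windows), an AP-1 motif (TGANTCA, 3.50%) or an NF-kB motif (5.24%). These are matches of letters, and nothing in the data bears on binding there.

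COL18A1 has a pair of starts, which lead to proteins with different amino-terminal ends. Both windows are shown because nearly all of its signal came from the transcript of the upstream start. The upstream window is chr21:45405039-45405164 and the downstream window chr21:45455396-45455521, both on the plus strand of GRCh38.p14 from RefSeq, with GC boxes on either strand in capitals.
COL18A1 upstream window: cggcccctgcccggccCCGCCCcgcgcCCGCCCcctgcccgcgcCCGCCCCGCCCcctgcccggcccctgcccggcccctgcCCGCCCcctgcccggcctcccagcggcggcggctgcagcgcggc
COL18A1 downstream window: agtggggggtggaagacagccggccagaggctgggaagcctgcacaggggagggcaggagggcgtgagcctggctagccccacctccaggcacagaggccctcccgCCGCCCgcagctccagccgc
The upstream window held 5 GC boxes and was 92.1% G or C, the downstream window held 1 and was 73.8% G or C, and the median over all windows was 60.3%.

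COL4A5 and LAMA4 each had most of their FPKM assigned to a pair of transcripts that differ in short coding stretches. These are shown because the libraries of a single group split the signal between the pair differently, as described below. The COL4A5-201 stretch joins the exons around a pair of 9-base exons at chrX:108670228-108670236 and chrX:108674745-108674753 (plus strand), and the LAMA4-201 stretch holds 21 bases at chr6:112189110-112189130 (minus strand). Both were read from GENCODE 29 transcripts on GRCh38, with 12 bases on either side and in capitals the bases that COL4A5-202 and LAMA4-207 lack.
COL4A5-201 stretch: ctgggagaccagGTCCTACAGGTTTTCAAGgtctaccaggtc
LAMA4-201 stretch: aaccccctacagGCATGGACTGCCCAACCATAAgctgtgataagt

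Levels are given as FPKM, fragments scaled to transcript length and to mapped fragments, as the authors calculated them. Differences were tested with limma on log2(FPKM + 0.5), a scale that understates changes of low genes, and p-values were adjusted by the Benjamini-Hochberg method over all 12068 genes. An adjusted p under 0.05 was the threshold. The tables hold no counts and no whole reads could be recovered from them, so the depth behind each value is unknown and no counting interval is given. In such bulk samples a larger share of cells expressing a gene cannot be told apart from more RNA per cell.

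Summed, the 10 genes took a larger share of the coding signal in the LPS libraries. COL4A1 and COL4A2 weigh most in that sum and had the largest rises in FPKM of the 10. COL4A1 averaged 377 FPKM in LPS and 268 FPKM in control libraries, and COL4A2 336 FPKM in LPS and 249 FPKM in control libraries. Their summed FPKM was 1630, 1681 and 1755 in LPS libraries 1 to 3, against 1512, 1512 and 1467 in control libraries 1 to 3, or 0.636%, 0.653% and 0.663% of the summed coding FPKM against 0.580%, 0.591% and 0.564%. COL4A1, COL4A2, HSPG2 and COL18A1 were higher with LPS, while the laminin chains LAMA4 and LAMC1 and the minor collagen chain COL4A5 were lower. None of the 10 genes passed the adjusted threshold, which 7 of all 12068 genes did (0.058%), or 0 to 8 when 1 library was left out. By limma at an unadjusted p under 0.05 there were 6 of the 10, 4 higher and 2 lower with LPS, where 10.4% of all genes met that mark. The LPS and control libraries did not overlap for 7 of the 10, 4 with every LPS library above every control and 3 with every LPS library below, against 17.4% of all genes, 8.68% above and 8.73% below. Because the genes were chosen with earlier results of these data known, these counts beside all genes are no test of the set. The median log2 change over the 10 genes was 0.07, with 5 positive and 5 negative, beside −0.01 over all genes tested. It was 0.0099 without LPS 2 and 0.13 without LPS 3.

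**Figure D1:**
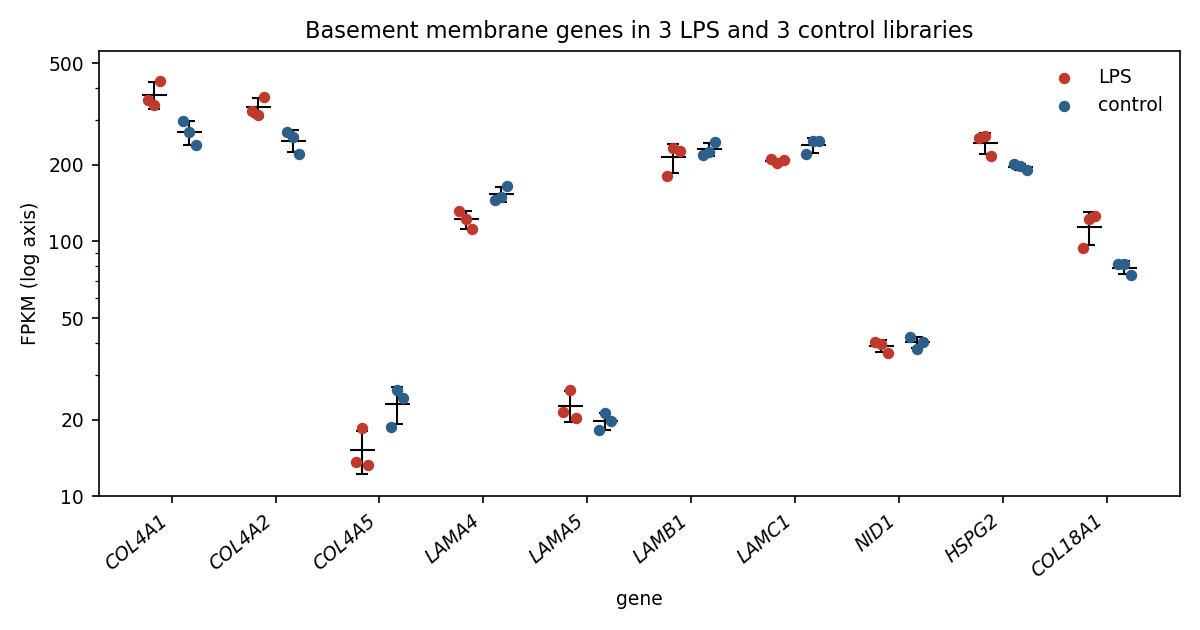
FPKM of the 10 genes (log axis) in each of 3 LPS libraries (red, left of each pair) and 3 control libraries (blue), with the mean and SD of each group as black bars. LPS points lie above all control points for COL4A1, COL4A2, HSPG2 and COL18A1, and below them for COL4A5, LAMA4 and LAMC1.

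**Figure D2:**
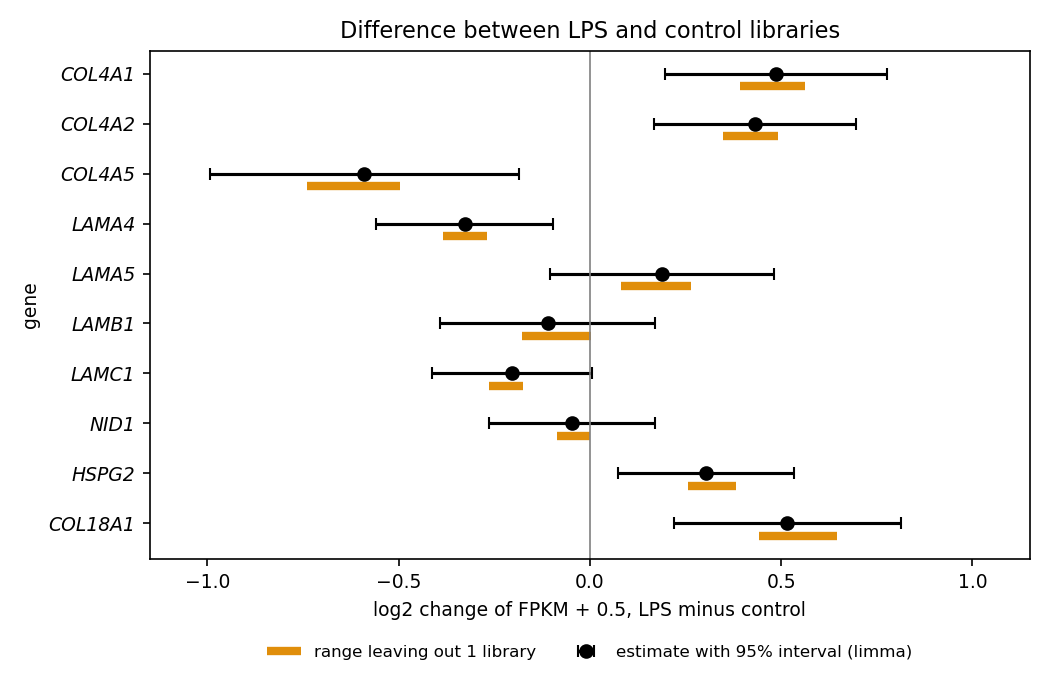
Log2 change of FPKM + 0.5 (LPS minus control) of the 10 genes, with the estimate and 95% interval from limma in black and, in orange, the range of estimates when each of the 6 libraries was left out in turn. COL18A1 (0.52) and COL4A1 (0.49) were highest and COL4A5 (−0.59) lowest, and the orange range crossed 0 for LAMB1 alone.

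COL4A1 and COL4A2 encode the chains of the collagen IV found in nearly all basement membranes, in which a COL4A2 chain joins a pair of COL4A1 chains. They were the most abundant of the 10 genes in both groups. COL4A1 (chr13:110148963-110307157, minus strand) stood at 359, 343 and 428 FPKM in LPS libraries 1 to 3, against 297, 269 and 239 FPKM in control libraries 1 to 3. Every LPS library was above every control, with LPS 3 the highest and control 3 the lowest. The means were 377 ± 44.9 FPKM in LPS and 268 ± 28.8 FPKM in control libraries (SD, n = 3 each), a log2 change of 0.49 (SE 0.12, 95% interval 0.20 to 0.78), with an adjusted p of 0.273 by limma.

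COL4A2 (chr13:110305812-110513209, plus strand) followed the same order. Its values were 324, 314 and 368 FPKM in LPS libraries 1 to 3, against 269, 257 and 220 FPKM in control libraries 1 to 3. The groups again did not overlap, and LPS 3 and control 3 were again at the ends. The means were 336 ± 28.7 FPKM in LPS and 249 ± 25.4 FPKM in control libraries (SD, n = 3 each), a log2 change of 0.43 (SE 0.11) with a limma adjusted p of 0.288. The ratio of COL4A2 to COL4A1 within a library was 0.901, 0.917 and 0.861 in LPS libraries and 0.907, 0.956 and 0.921 in controls. The ratios overlapped, and their log2 difference was −0.05 (two-sided exact permutation p = 0.2, 0.25 adjusted over 5 ratios), or −0.03 without LPS 3 and without control 2. With 3 libraries against 3 this test cannot go below 0.1.

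By root-mean-square distance of centred log2 values over the 6 libraries, among 4278 genes with a mean of at least 10 FPKM, COL4A2 was the second closest gene to COL4A1 (distance 0.0447). The closest was RNF19B, an E3 ubiquitin ligase, at 0.0431, with 13.6, 12.3 and 17.1 FPKM in LPS libraries and 11.5, 9.96 and 8.82 FPKM in controls. COL5A3, a fibrillar collagen V chain, followed at 0.0507 with 74.2, 69.2 and 80.9 FPKM in LPS libraries and 55.9, 52.2 and 45.1 FPKM in controls. The protease ADAMTS4 (0.0720) and CREB3L1, a transcription factor of the endoplasmic reticulum membrane (0.0755), came next. Of the other genes described here COL18A1 ranked 77 and HSPG2 457, LAMA5, NID1, LAMB1 and LAMC1 lay between ranks 1494 and 3231, and LAMA4 (3772) and COL4A5 (4138) were near the far end.

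COL4A5 (chrX:108439844-108697545, plus strand) encodes a minor collagen IV chain, known from kidney glomerular basement membrane and from Alport syndrome, and it was lower with LPS. It had 13.7, 18.6 and 13.3 FPKM in LPS libraries 1 to 3, against 18.8, 26.1 and 24.3 FPKM in control libraries 1 to 3. All LPS libraries were below all controls, but LPS 2 and control 1 were nearly level. The means were 15.2 ± 2.93 FPKM in LPS and 23.0 ± 3.81 FPKM in control libraries (SD, n = 3 each), a log2 change of −0.59 (SE 0.17, 95% interval −0.99 to −0.19) with a limma adjusted p of 0.336. Set against COL4A1 in the same library, COL4A5 stood at 0.0380, 0.0541 and 0.0311 in LPS libraries and at 0.0632, 0.0969 and 0.102 in controls. Every LPS library was already above every control for COL4A1 and below every control for COL4A5, so these ratios could not overlap. That fixed the exact permutation p of the log2 difference of −1.09 at 0.1, the smallest possible (0.25 adjusted over 5 ratios).

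As a share of the summed FPKM of all collagen IV genes, COL4A5 made up 1.64% to 2.74% in LPS libraries and 3.204% to 5.00% in controls. COL4A1 made up 51.7% ± 1.07 in LPS and 49.5% ± 1.11 in control libraries, and COL4A2 46.1% ± 0.570 in LPS and 45.9% ± 0.530 in control libraries (SD, n = 3 each). COL4A6, which lies next to COL4A5 with 346 bases between their GENCODE starts, is named after its values were seen. It had 0.421, 0.345 and 0.409 FPKM in LPS libraries and 0.463, 1.78 and 1.87 FPKM in controls, and control 1 was close to the LPS level (limma adjusted p = 0.402). COL4A3 and COL4A4, partners of COL4A5 in kidney, were below 0.2 FPKM in all 6 libraries.

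The laminin alpha chains differed from each other. LAMA4 (chr6:112108757-112254939, minus strand) encodes the alpha chain laid down widely in endothelial basement membranes and made up 69.2% ± 2.54 of the summed laminin alpha FPKM in LPS and 70.7% ± 0.760 in control libraries (SD, n = 3 each). It had 132, 122 and 112 FPKM in LPS libraries 1 to 3, against 146, 150 and 165 FPKM in control libraries 1 to 3. Every LPS library was below every control. The means were 122 ± 9.73 FPKM in LPS and 153 ± 10.0 FPKM in control libraries (SD, n = 3 each), a log2 change of −0.33 (SE 0.10, 95% interval −0.56 to −0.10) with a limma adjusted p of 0.339.

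LAMA5 (chr20:62302965-62367312, minus strand) encodes the other main endothelial alpha chain, which in mouse vessels is patchy and marks stretches that leukocytes cross less readily. Its values were 21.5, 26.2 and 20.3 FPKM in LPS libraries and 18.3, 21.2 and 19.8 FPKM in controls. The groups overlapped, with means of 22.7 ± 3.14 FPKM in LPS and 19.7 ± 1.48 FPKM in control libraries (SD, n = 3 each), a log2 change of 0.19 (SE 0.13) and a limma adjusted p of 0.644. The log2 change was 0.08 without LPS 2. Of its summed FPKM, 29.4% came from an assembled transcript at chr20:62302965-62308853, which lies within the span of ADRM1, a proteasome ubiquitin receptor gene on the opposite strand, and reaches past the end of LAMA5 in GENCODE 29. Without that transcript, a setting chosen after seeing the data, LAMA5 had 16.5, 18.2 and 13.4 FPKM in LPS libraries and 13.5, 14.8 and 13.4 FPKM in controls, and the log2 change was again 0.19.

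The balance between both alpha chains separated the groups. The ratio of LAMA5 to LAMA4 was 0.163, 0.214 and 0.181 in LPS libraries, against 0.125, 0.142 and 0.120 in controls. All LPS ratios were above all control ratios, by 0.52 on the log2 scale, with the smallest exact permutation p possible, 0.1 (0.25 adjusted over 5 ratios). Without the assembled transcript the ratio was 0.125, 0.149 and 0.119 in LPS libraries and 0.0926, 0.0989 and 0.0817 in controls, and the log2 difference stayed at 0.52. With the assembled transcript counted, LAMA5 made up 12.8% ± 1.34 of the summed laminin alpha FPKM in LPS and 9.13% ± 0.838 in control libraries. LAMA2, a chain known from muscle and nerve, made up 14.1% ± 1.21 in LPS and 16.6% ± 0.977 in control libraries (SD, n = 3 each).

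**Figure D3:**
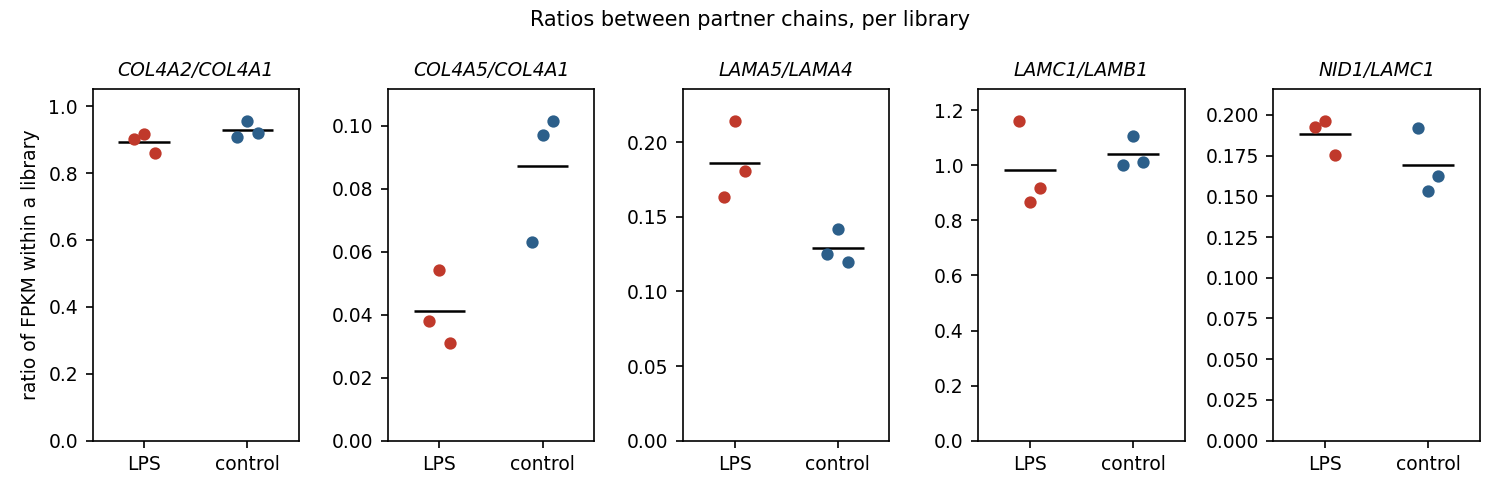
Ratio of the FPKM of the first to the second gene within each library, for 3 LPS (red) and 3 control libraries (blue), with group means as black lines and each vertical axis starting at 0. COL4A5/COL4A1 was lower in all LPS libraries (0.0311 to 0.0541) than in the controls (0.0632 to 0.102), which follows from the opposite separation of its genes. LAMA5/LAMA4 was higher in all LPS libraries (0.163 to 0.214) than in the controls (0.120 to 0.142), and the groups overlapped for the other ratios.

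LAMB1 and LAMC1 encode the beta and gamma chains shared by most laminins, and their levels were close to each other. LAMB1 (chr7:107923799-108003187, minus strand) had 181, 233 and 227 FPKM in LPS libraries 1 to 3 and 219, 224 and 246 FPKM in control libraries 1 to 3. LPS 1 was the lowest of all 6, and the other LPS libraries lay within the control range. The means were 214 ± 28.5 FPKM in LPS and 230 ± 13.99 FPKM in control libraries (SD, n = 3 each), a log2 change of −0.11 (95% interval −0.39 to 0.17) with a limma adjusted p of 0.786. That sign rested on LPS 1, since without it the log2 change was 0.0044 (limma adjusted p = 0.996). It was −0.18 without LPS 2 and −0.06 without control 3.

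LAMC1 (chr1:183023420-183145592, plus strand) had 210, 203 and 208 FPKM in LPS libraries, against 220, 248 and 249 FPKM in controls. The LPS libraries were close together and all below the controls, of which control 1 was the nearest. The means were 207 ± 3.98 FPKM in LPS and 239 ± 16.6 FPKM in control libraries (SD, n = 3 each), a log2 change of −0.20 (SE 0.09, 95% interval −0.41 to 0.0048) with a limma adjusted p of 0.492. The ratio of LAMC1 to LAMB1 was 1.16, 0.868 and 0.918 in LPS libraries and 1.003, 1.11 and 1.01 in controls, an overlap (log2 difference −0.09, exact permutation p = 0.5, also after adjustment over 5 ratios). Single libraries set that value, since it was −0.22 without LPS 1, where the groups no longer overlapped (exact permutation p = 0.1), and −0.01 without LPS 2. LAMC1 made up 98.7% of the summed laminin gamma FPKM in both groups, and LAMB1 75.3% of the laminin beta FPKM in both groups.

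LAMC1 and LAMA4 were also lower relative to COL4A1 in every LPS library. These ratios were added after the values were seen and are given without a test. LAMC1 over COL4A1 was 0.585, 0.591 and 0.487 in LPS libraries and 0.740, 0.923 and 1.04 in controls. LAMA4 over COL4A1 was 0.367, 0.357 and 0.263 in LPS libraries and 0.490, 0.556 and 0.687 in controls. Neither ratio could overlap between the groups, because every LPS library was below every control for LAMC1 and LAMA4 and above every control for COL4A1. The ratios of HSPG2 and COL18A1, which were higher with LPS like COL4A1, to COL4A1 did overlap.

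NID1 (chr1:235975830-236065109, minus strand) encodes nidogen 1, which binds the laminin gamma chain and collagen IV. It had 40.5, 39.7 and 36.4 FPKM in LPS libraries and 42.1, 38.0 and 40.4 FPKM in controls. The groups overlapped, with means of 38.9 ± 2.15 FPKM in LPS and 40.2 ± 2.10 FPKM in control libraries (SD, n = 3 each), a log2 change of −0.05 (95% interval −0.26 to 0.17) and a limma adjusted p of 0.896. Left-out libraries moved that change between −0.09 (without control 2) and −0.00073 (without LPS 3). Its ratio to LAMC1 was 0.193, 0.196 and 0.175 in LPS libraries and 0.192, 0.153 and 0.162 in controls (log2 difference 0.16, exact permutation p = 0.2, 0.25 adjusted over 5 ratios), and the groups overlapped. That difference was 0.25 without control 1 and 0.09 without control 2. NID1 made up 33.3% ± 1.31 of the summed nidogen FPKM in LPS and 34.3% ± 0.299 in control libraries (SD, n = 3 each), and NID2 the rest.

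Both proteoglycan genes were higher in the LPS libraries. HSPG2 (chr1:21822244-21937310, minus strand) encodes perlecan, whose heparan sulfate chains bind growth factors. It had 254, 258 and 217 FPKM in LPS libraries, against 200.5, 198 and 190.2 FPKM in controls. Every LPS library was above every control, and the controls were close together. The means were 243 ± 22.8 FPKM in LPS and 196 ± 5.35 FPKM in control libraries (SD, n = 3 each), a log2 change of 0.30 (SE 0.10, 95% interval 0.07 to 0.53) with a limma adjusted p of 0.359.

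COL18A1 (chr21:45405165-45513720, plus strand) encodes collagen XVIII, whose carboxy-terminal fragment is endostatin, an inhibitor of vessel growth. It had 94.4, 122 and 125 FPKM in LPS libraries, against 81.8, 81.5 and 73.9 FPKM in controls. The groups did not overlap, and LPS 1 was the LPS library nearest to the controls. The means were 114 ± 16.99 FPKM in LPS and 79.0 ± 4.48 FPKM in control libraries (SD, n = 3 each), a log2 change of 0.52 (SE 0.13, 95% interval 0.22 to 0.81) with a limma adjusted p of 0.267.

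Ordered by mean FPKM, the LPS libraries ran COL4A1, COL4A2, HSPG2, LAMB1, LAMC1, LAMA4, COL18A1, NID1, LAMA5 and COL4A5. Each gene was above the next in all 3 LPS libraries, except that HSPG2 over LAMB1, LAMB1 over LAMC1 and LAMA4 over COL18A1 held in 2 of 3. The control libraries ran COL4A1, COL4A2, LAMC1, LAMB1, HSPG2, LAMA4, COL18A1, NID1, COL4A5 and LAMA5. There only COL4A2 over LAMC1 failed to hold in all 3, with 2 of 3. Between the groups HSPG2 thus stood above both LAMB1 and LAMC1 by mean in LPS libraries and below both in controls, and LAMA5 stood above COL4A5 in LPS libraries and below it in controls. The place of LAMA5 counts its assembled transcript within ADRM1. Without that transcript LAMA5 had 16.5, 18.2 and 13.4 FPKM in LPS libraries 1 to 3, against 13.7, 18.6 and 13.3 FPKM of COL4A5. LAMA5 was then below COL4A5 in LPS 2 and nearly level with it in LPS 3. By mean over all 6 libraries COL4A1 ranked 90 among protein-coding genes, COL4A2 97, LAMC1 137, LAMB1 139 and HSPG2 145. With the assembled LAMA5 transcript counted, COL4A5 ranked lowest of the 10 at 2289.

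At the transcript level the deposited tables list 135 transcripts of the 10 genes, and 18 of them held at least 10% of their gene's FPKM. Of 35 tested, limma called 0 at an adjusted p under 0.05, beside 26 of 20563 coding transcripts (0.126%). At an unadjusted p under 0.05 there were 7 of the 35 (6.44% of all), and 9 did not overlap between groups (13.8% of all). A single full-length transcript carried COL4A1 (COL4A1-201, 97.1%), LAMC1 (LAMC1-201, 97.3%), NID1 (NID1-201, 97.9%) and HSPG2 (HSPG2-203, 96.6%). COL4A2 split into COL4A2-201 (84.7%) and the shorter COL4A2-218 (11.4%), and LAMA5-201 held 56.4% of LAMA5.

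COL18A1-207, from the upstream start, held 89.8% of COL18A1. It had 77.5, 113 and 117 FPKM in LPS libraries, against 75.4, 69.9 and 67.1 FPKM in controls, and LPS 1 was only just above control 1 (limma adjusted p = 0.730). COL18A1-203, from the downstream start, stood at 9.80 FPKM in LPS 1 and 6.03 FPKM in control 2, and at no more than 0.119 FPKM in the other 4 libraries. The gap between LPS 1 and the other LPS libraries was thus wider for COL18A1-207 than for the whole gene.

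The COL4A5 signal was split differently between transcripts within each group. COL4A5-201 had 0.553, 9.53 and 0.395 FPKM in LPS libraries and 0.613, 15.8 and 19.7 FPKM in controls, while COL4A5-202 had 10.5, 4.30 and 9.21 FPKM in LPS libraries and 13.4, 2.61 and 1.08 FPKM in controls. By these estimates LPS 1, LPS 3 and control 1 were mostly COL4A5-202, and LPS 2, control 2 and control 3 mostly COL4A5-201. The pair share 6423 bases, 99.1% of COL4A5-201, and differ in coding sequence only by the 18 bases printed in capitals. The split therefore rests on few bases at unknown depth, and whether the reads could tell the pair apart was not tested. A transcript with a retained intron, COL4A5-203, held a further 16.4% of the gene's FPKM. Neither main transcript separated the groups (limma adjusted p = 0.828 for both).

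LAMA4-201 had 58.5, 68.9 and 62.6 FPKM in LPS libraries and 47.1, 91.6 and 86.8 FPKM in controls, and LAMA4-207, which lacks the 21 bases in capitals, had 43.6, 27.2 and 18.7 FPKM in LPS libraries and 62.9, 24.2 and 40.2 FPKM in controls. Both overlapped between the groups, although the gene did not, and control 1 alone held more of LAMA4-207 than of LAMA4-201. LAMB1 was spread over LAMB1-204 (39.7%), LAMB1-201 (13.9%) and a pair of short transcripts, LAMB1-202 (21.3%, 550 bases in 3 exons) and the noncoding LAMB1-210 (13.1%). LPS 1, the library lowest in LAMB1, had 23.2 FPKM of LAMB1-202, against 54.5 and 43.8 FPKM in LPS 2 and LPS 3 and 48.6, 51.9 and 61.3 FPKM in controls.

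**Figure D4:**
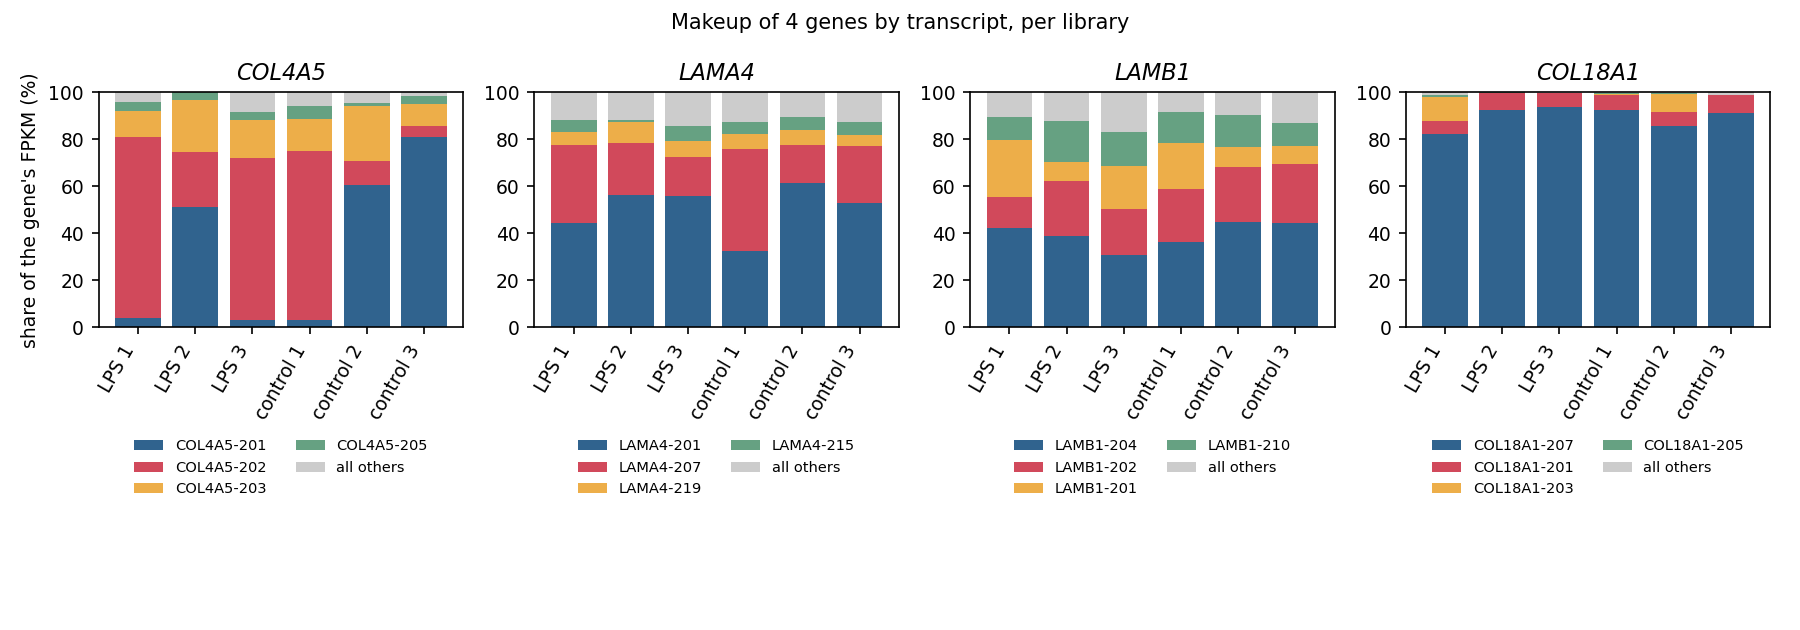
Share of each gene's FPKM (percent) held by its 4 most abundant transcripts and all others, stacked for each of 3 LPS and 3 control libraries. The COL4A5-201 share ran from 2.97% (LPS 3) to 80.9% (control 3) without following the groups, whereas COL18A1-207 held at least 82.1% in every library.

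Each of the 10 loci overlaps 1 or more other listed genes averaging at least 0.5 FPKM. Reads may be shared between them, since the counting strand is not given in the sources used here. COL4A2-AS2, on the strand opposite COL4A2, had 39.5 ± 3.26 FPKM in LPS and 26.8 ± 4.01 FPKM in control libraries (SD, n = 3 each). Of that, 99.9% came from an assembled transcript that spans the COL4A2 locus, and in every library it stood at 10.1% to 12.9% of COL4A2. LAMC1-AS1 had 15.5 FPKM in LPS and 16.1 FPKM in control libraries, 6.19% to 8.60% of LAMC1, and 99.9% of it came from an assembled transcript. Z99289.1, opposite LAMA4 and listed over nearly its whole length, had 5.72 FPKM in LPS and 6.90 FPKM in control libraries, and LAMA5-AS1 had 1.89 FPKM in LPS and 1.72 FPKM in control libraries, 99.99% of it from assembled transcripts. The values of COL4A2-AS2, LAMC1-AS1 and LAMA5-AS1 thus come almost wholly from transcripts without an Ensembl identifier. AL161773.1 at COL4A1, RNU6-1226P at LAMA4 and the RF00019 copies at COL4A5 and NID1 averaged at most 3.55 FPKM in either group. Of coding neighbours, ADRM1 at LAMA5 had 59.1 FPKM in LPS and 55.5 FPKM in control libraries, and DLD at LAMB1 had 23.4 FPKM in LPS and 26.0 FPKM in control libraries. SLC19A1 at COL18A1 had 7.36 FPKM in LPS and 6.20 FPKM in control libraries, and LDLRAD2 at HSPG2 had 2.11 FPKM in LPS and 2.19 FPKM in control libraries. COL4A1 and COL4A2 themselves overlap by 1346 bases in their listed spans, since that of COL4A2 starts at 110305812, outside the interval printed above.

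Other basement membrane genes were mixed. Of 27 listed, 21 were tested, 0 passed the adjusted threshold in either direction by limma, 3 were higher and 3 lower at an unadjusted p under 0.05 (5.13% and 5.26% of all genes), and the median log2 change was 0.07. AGRN, the heparan sulfate proteoglycan agrin, had 39.9, 39.8 and 37.6 FPKM in LPS libraries, against 29.4, 27.7 and 25.6 FPKM in controls (log2 change 0.50, SE 0.09, limma adjusted p = 0.173). PXDN, peroxidasin, which makes the sulfilimine bonds between collagen IV molecules, had 184, 173 and 178 FPKM in LPS libraries, against 155, 152 and 141 FPKM in controls (adjusted p = 0.365 by limma). Both were higher in every LPS library than in any control. LAMA2 averaged 25.1 ± 4.11 FPKM in LPS and 36.1 ± 4.90 FPKM in control libraries, and FBLN2, the matrix glycoprotein fibulin 2, 15.8 ± 2.70 FPKM in LPS and 31.3 ± 8.93 FPKM in control libraries (SD, n = 3 each), with no overlap for either. The abundant SPARC, a collagen-binding glycoprotein, had 1614 ± 69.9 FPKM in LPS and 1655 ± 215 FPKM in control libraries, and EGFL7, secreted by endothelial cells, 86.7 ± 22.8 FPKM in LPS and 71.4 ± 12.2 FPKM in control libraries (SD, n = 3 each).

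All 25 listed genes for collagen IV maturation and export were tested, and 0 passed the adjusted threshold by limma. At an unadjusted p under 0.05, 3 were higher and 1 lower (5.13% and 5.26% of all genes), and the median log2 change was 0.02. PLOD3, a lysyl hydroxylase that also glycosylates collagen, averaged 64.5 ± 3.60 FPKM in LPS and 53.8 ± 1.85 FPKM in control libraries. P4HA2, a prolyl hydroxylase subunit, averaged 85.2 ± 7.58 FPKM in LPS and 70.6 ± 5.12 FPKM in control libraries. CREB3L1 averaged 113 ± 15.2 FPKM in LPS and 87.2 ± 6.38 FPKM in control libraries (SD, n = 3 each for these genes), and none of the 3 overlapped between groups. These 3 were named for the smallest p of the list, and 17.4% of all genes did not overlap. The most abundant 3 overlapped. P4HB, the other prolyl hydroxylase subunit, averaged 422 ± 68.7 FPKM in LPS and 398 ± 38.1 FPKM in control libraries. The collagen chaperone SERPINH1 averaged 325 ± 76.7 FPKM in LPS and 316 ± 15.7 FPKM in control libraries, and the endoplasmic reticulum chaperone HSP90B1 228 ± 32.8 FPKM in LPS and 255 ± 32.1 FPKM in control libraries (SD, n = 3 each).

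Of 14 receptors for basement membrane proteins, 13 were tested, 0 passed the adjusted threshold by limma, and the median log2 change was 0.11. At an unadjusted p under 0.05, 1 was higher (5.13% of all genes). That gene was DAG1, dystroglycan, a receptor for laminin, agrin and perlecan. It had 13.5, 13.0 and 16.97 FPKM in LPS libraries, against 5.04, 3.71 and 8.54 FPKM in controls. Every LPS library was above every control, with a log2 change of 1.32 (SE 0.27) and a limma adjusted p of 0.197. ITGB1, the beta chain of most laminin and collagen receptors, averaged 364 ± 27.6 FPKM in LPS and 412 ± 31.5 FPKM in control libraries (SD, n = 3 each), with overlap. ITGA3, an integrin alpha chain for laminins, SDC4, the proteoglycan syndecan 4, and DDR2, a collagen-binding receptor tyrosine kinase, also overlapped.

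Of 23 genes for basement membrane breakdown or its control, 19 were tested and 0 passed the adjusted threshold by limma. At an unadjusted p under 0.05, 5 were higher and 2 lower (5.13% and 5.26% of all genes). The median log2 change was 0.26, beside −0.01 over all genes tested. The 2 lower genes were CTSL (57.8 FPKM in LPS, 79.3 FPKM in control libraries) and ADAMTS1 (25.2 FPKM in LPS, 41.0 FPKM in control libraries). Both were lower in every LPS library than in any control. CTSS, the matrix-degrading protease cathepsin S, averaged 2.71 ± 0.294 FPKM in LPS and 0.982 ± 0.353 FPKM in control libraries (limma adjusted p = 0.173). MMP10, stromelysin 2, averaged 2.72 ± 1.16 FPKM in LPS and 0.958 ± 0.0335 FPKM in control libraries (limma adjusted p = 0.236). ADAMTS4 averaged 15.6 ± 0.933 FPKM in LPS and 11.03 ± 0.691 FPKM in control libraries (limma adjusted p = 0.220, SD, n = 3 each for these genes), and none of the 3 overlapped between groups. These 3 were named for the smallest p of the list, and 17.4% of all genes did not overlap. TIMP1, an inhibitor of matrix metalloproteinases, was by far the most abundant at 1860 ± 262 FPKM in LPS and 1979 ± 95.6 FPKM in control libraries, and it overlapped, as did MMP14, a membrane-bound matrix metalloproteinase, and CTSB, cathepsin B.

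All 11 TGF-beta and SMAD readouts in the table were tested, 0 passed the adjusted threshold by limma, and the median log2 change was 0.08. At an unadjusted p under 0.05, 1 was higher (5.13% of all genes). That gene was CCN2, connective tissue growth factor, with 720, 704 and 727 FPKM in LPS libraries, against 630, 579.5 and 563 FPKM in controls (log2 change 0.28, limma adjusted p = 0.351). Its groups did not overlap. TGFBR2, a TGF-beta receptor, averaged 126 ± 13.5 FPKM in LPS and 149 ± 8.28 FPKM in control libraries (SD, n = 3 each), also without overlap. TGFBI (a secreted matrix protein) and LTBP2 (a latent TGF-beta binding protein family member) overlapped.

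**Figure D5:**
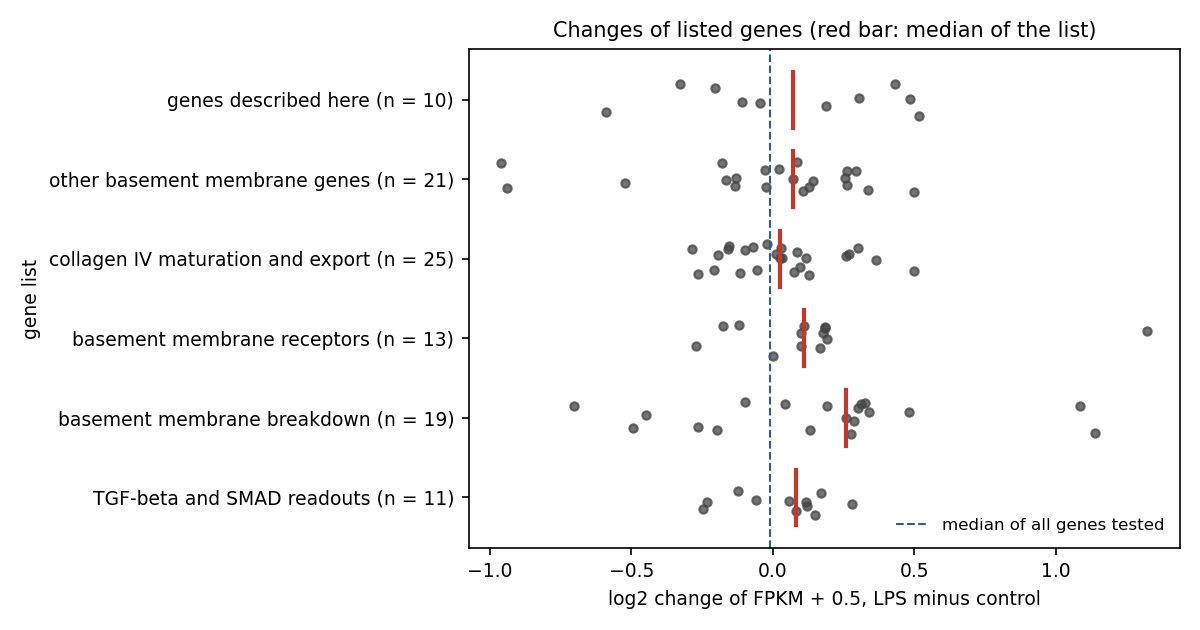
Log2 change of FPKM + 0.5 (LPS minus control) of each tested gene, as points spread vertically for legibility, in the 10 genes described here and in 5 lists of related genes, with the list median as a red bar and the median of all genes tested (−0.01) as a dashed line. List medians lay between 0.02 (maturation and export) and 0.26 (breakdown), and DAG1 at 1.32 stood farthest to the right.

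The libraries held markers of more than 1 cell type. Summed coding FPKM, which does not measure depth, ran from 256047 to 264878, and summed FPKM of all annotated genes was 427920 in control 3 and 467380 to 483345 in the other libraries. Correlations of log2 values across coding genes were 0.971 to 0.976 within groups and 0.962 to 0.974 between them. All 12 endothelial markers were tested, with a summed level of 414 to 504 FPKM in LPS and 337 to 442 FPKM in control libraries. Of their log2 changes 11 of 12 were positive, against 47.8% over all genes tested. The exception, EMCN, had the largest change of the list (log2 change −1.12). It averaged 0.394 FPKM in LPS and 1.42 FPKM in control libraries and was lower in every LPS library than in any control. The 14 fibroblast and smooth muscle markers, genes that are not typical of endothelium, summed to 4579 to 5021 FPKM in LPS and 4678 to 5180 FPKM in control libraries, with 5 positive and 7 negative log2 changes among 12 tested and a median of −0.11. The most abundant, COL1A1, averaged 1526 FPKM in LPS and 1395 FPKM in control libraries, with overlap. COL3A1 (666 FPKM in LPS, 811 FPKM in control libraries), PDGFRA (21.8 FPKM in LPS, 32.6 FPKM in control libraries) and LUM (12.8 FPKM in LPS, 21.5 FPKM in control libraries) were lower in every LPS library than in any control, and THY1 (81.8 FPKM in LPS, 62.1 FPKM in control libraries) was higher. The 14 epithelial and A549 markers summed to 97.8 to 121 FPKM in LPS and 137 to 146 FPKM in control libraries. The keratins KRT18, KRT19, KRT7 and KRT8 were the most abundant of them. The 8 not tested, EPCAM, CDH1, KRT5, KRT14, CLDN4, NAPSA, NKX2-1 and SFTPB, were at no more than 0.0805 FPKM in any library. Of the 6 tested, 5 were lower by limma at an unadjusted p under 0.05 (5.26% of all genes). The other tested marker, KRT7, was higher in every LPS library than in any control (log2 change 0.44). The 12 leukocyte markers summed to 12.0 to 17.2 FPKM in LPS and 7.65 to 13.2 FPKM in control libraries, ranges that overlap, and 7 of them, PTPRC included, were at 0 in all libraries. Of the 2 tested, LAPTM5 averaged 8.53 FPKM in LPS and 5.16 FPKM in control libraries, and CD68 5.03 FPKM in LPS and 5.93 FPKM in control libraries. The part of any of these marker lists in the values of the basement membrane genes was not tested.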

How the data were processed

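Total RNA of 3 LPS and 3 control libraries was sequenced with standard Illumina library protocols, per the labels. The authors deposited FPKM per gene and per transcript, and the submitters' processing notes name HISAT2 and StringTie without versions. Those notes name the mouse build mm9, but the identifiers in the deposited tables are human Ensembl ones and their coordinates are those of GRCh38, used here. Genes were matched to GENCODE 29 and starts to RefSeq windows on GRCh38.p14.

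FPKM values were transformed to log2(FPKM + 0.5), genes and transcripts with a mean of at least 0.5 FPKM were kept, and LPS was compared with control with limma 3.58.1 in R 4.3.3 (eBayes with trend, group alone, two-sided). P-values were adjusted by Benjamini-Hochberg over each whole table. Ratios within a library were compared by exact permutation over libraries. FPKM carries no depth. Low FPKM values were whole multiples of a step in 33.1% to 37.0% of cases (tolerance 0.02), so no reads were recovered. No pair of libraries shared more than 0.00814% of its values above 0.

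The 10 genes and the lists of related genes were chosen with earlier results of these data known. Named beside the 10 genes are their transcripts with at least 10% of the gene's FPKM, from each list up to 3 genes with the smallest p and up to 3 with the highest mean, the 5 genes closest to COL4A1, and overlapping noncoding genes of at least 0.5 FPKM. Some listed genes that this rule names, most of them cell type markers, are left out of the text. CTSL and ADAMTS1 were added outside it. Alternatives were pseudocounts of 0.1 and 1, no filter, a minimum of 1 FPKM, median-of-ratios and quantile scaling, a replicate block, library weights, robust eBayes, no trend, the table of all annotated genes and each library left out. The procedure was tested on simulated data.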

Additional observations from a re-analysis of the deposited data

How the results depend on the processing

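Of 380 values recomputed under the alternatives, 370 kept their direction and side of the threshold, or stayed within 1.5 times for a count. For the median log2 change the mark was the spread of libraries within groups. The total includes counts that stayed at 0 and ratios whose exact permutation p cannot fall under 0.05, so it is no measure of stability. None of the 10 genes, their transcripts or the genes of the 5 related lists passed the adjusted limma threshold under any alternative run, while 5 to 7 of the 10 genes were at an unadjusted p under 0.05. Only LAMB1 changed sign, with log2 changes from −0.18 (without LPS 2) to 0.0044 (without LPS 1). The median log2 change over the 10 genes, 0.07, ran from 0.0099 without LPS 2 to 0.13 without LPS 3. The count of all protein-coding genes past the threshold, 7, was 0 with no filter (1563 at an unadjusted p under 0.05) and 2 without the trend. With each library left out it ran from 0 to 8, with 0 without LPS 2 (1213 at an unadjusted p under 0.05), 0 without control 2 (1046), 2 without LPS 3 and 4 without control 1. The cause of these moves was not tested. The labels do not say whether replicate numbers pair the samples. Deviations of same-numbered libraries correlated by 0.0175, 0.105 and 0.0605 for numbers 1 to 3. The highest correlations with another number were 0.0228, −0.0131 and 0.0228. Numbers 2 and 3 thus correlated best with their own number, and number 1 did not. With a replicate block limma called 0 genes (1451 at an unadjusted p under 0.05), and 0 of the 10. Within replicate numbers the exact permutation p was 0.25, the smallest that this pairing allows, for every ratio except LAMC1/LAMB1 (0.75). Ratios whose groups overlapped, COL4A2/COL4A1 and NID1/LAMC1, were thus among those at 0.25. For COL4A5/COL4A1 that outcome was fixed by the opposite separation of its genes. With 3 libraries a group and unknown depth, a difference that misses the threshold is not shown to be absent.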
